A study of Malus domestica with 12 samples.

Results

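The sequences described here are those of the apple miRNAs miR7120 and miR7121. They were chosen by name, as every distinct mature sequence of the deposited table of known miRNAs whose first identifier names miR7120 or miR7121. This rule uses no measured value, although the families were picked with earlier results of these data known. The rule gave 4 sequences of the 254 in that table, and of 370 distinct sequences when the table of hairpin loci found de novo was joined to it. Small RNAs were sequenced from apical buds of Malus domestica cv. Golden Delicious collected in a single winter at 4 stages, with 3 libraries per stage, each from a pool of buds of several trees. Stage 1 was early endodormancy (665 chilling hours, libraries A, B and C), Stage 2 late endodormancy (1098 chilling hours, libraries D, E and F), Stage 3 early ecodormancy (1280 chilling hours, libraries G, H and I) and Stage 4 late ecodormancy (1395 chilling hours, libraries J, K and L). All groups shared the cultivar and the orchard and none was treated, so that a stage and its sampling date cannot be told apart. Whole buds were used, in which fewer cells of a type and less small RNA per cell cannot be told apart.

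An endodormant bud is held back by signals of the bud itself, which prolonged cold removes, whereas an ecodormant bud is held back only by its surroundings and grows when it is warmed. A plant miRNA is cut by a Dicer-like enzyme from the stem of a folded transcript as a short duplex, of which 1 strand, the mature miRNA, is kept by an ARGONAUTE protein and guides it to transcripts of nearly complementary sequence, while the other strand, the star, is mostly lost. The mature strand can come from the 5p arm or the 3p arm of the stem, and its seed, the bases 2 to 8 from the 5′ end, weighs heavily in the choice of transcript. The libraries were made from small RNAs purified together with the ARGONAUTE proteins of the bud. miR7120 and miR7121 are families that miRBase lists for apple, and no role in the bud is assigned to them here.

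The 4 mature sequences are shown because all the results below refer to them, in the letters of the deposited table, with T for U and with the seed in capitals.
miR7120-3p: cAGTCTGAcaatataacgtgc
miR7120-5p: tGTTATATtgtcagattgtca
miR7121a-c: tCCTCTTGgtgatcgccctgt
miR7121d-h: tCCTCTTGgtgatcgccctgc

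All 4 were 21 bases long, so that their read counts need no correction for length. Other effects of a sequence on its read count were not corrected for, so that comparisons between sequences are of reads. The first identifier of miR7121a-c in the table was mdm-miR7121c, that of miR7121d-h was mdm-miR7121e, and those of the miR7120 arms were mdm-miR7120a-3p and mdm-miR7120b-5p. The names miR7121a, b and c belong to 1 sequence and the names miR7121d to miR7121h to the other, and the reads of genes that give the same mature sequence cannot be told apart. The miR7121 sequences were identical at 20 of 21 bases and shared the seed CCTCTTG. The single difference was T21C, with the base of miR7121a-c first, the position counted from 1 at the 5′ end, and the base of miR7121d-h last. miR7120-3p and miR7120-5p are the opposite arms of 1 stem and had unrelated seeds. In the predicted duplex of these arms, 18 bases of each were paired, 16 pairs were of the Watson-Crick kind, and 3 bases were left unpaired at the 3′ end of each arm. miR7120-3p and miR7120-5p were each listed under the names of both miR7120a and miR7120b.

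The table of de novo loci held 3 hairpins for miR7121 and none for miR7120. All 3 lay on the plus strand of chromosome 2 of the GDDH13 v1.1 genome, in an interval of 159 kb, and the miR7121 sequence was on the 5p arm of each. No other de novo hairpin lay within that interval, which held 3 of the 12 de novo loci of chromosome 2. Whether they lie in genes was not analysed here, since no annotation of this build was used. The hairpins are shown because they place the single base that separates the mature sequences, and because the miR7121d-h hairpins differ from each other only outside the mature and star strands. Capitals mark the mature strand, which comes first, and the star strand, whose reads were not used here.
hairpin 1, miR7121d-h, chr2:1735508-1735621: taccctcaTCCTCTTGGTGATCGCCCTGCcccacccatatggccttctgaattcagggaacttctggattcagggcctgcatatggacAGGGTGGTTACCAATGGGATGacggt
hairpin 2, miR7121a-c, chr2:1751063-1751150: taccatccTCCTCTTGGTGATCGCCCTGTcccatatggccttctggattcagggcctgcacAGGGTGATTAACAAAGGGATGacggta
hairpin 3, miR7121d-h, chr2:1894439-1894531: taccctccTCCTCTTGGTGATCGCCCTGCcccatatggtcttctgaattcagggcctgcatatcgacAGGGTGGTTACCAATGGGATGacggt

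Hairpin 1 was 114 bases long, hairpin 2 was 88 and hairpin 3 was 93. The difference lay mostly in the stretch between the mature and the star strand, of 59, 32 and 38 bases. Part of this stretch was itself paired in each hairpin. The miR7121d-h hairpins 1 and 3 were identical at 96.8% of the aligned bases, against 93.1% for hairpins 1 and 2 and 92.0% for hairpins 2 and 3. The star strands of miR7121d-h and miR7121a-c were identical at 18 of 21 bases, so that the star strands differed at more positions than the mature strands. Each hairpin was predicted to fold into a single unbranched stem, with minimum free energies of -63.1, -39.5 and -41.4 kcal/mol for hairpins 1, 2 and 3. Of the 21 bases of the mature strand, 18 were paired with the star strand in hairpins 1 and 3, and 16 in hairpin 2.

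**Figure D1:**
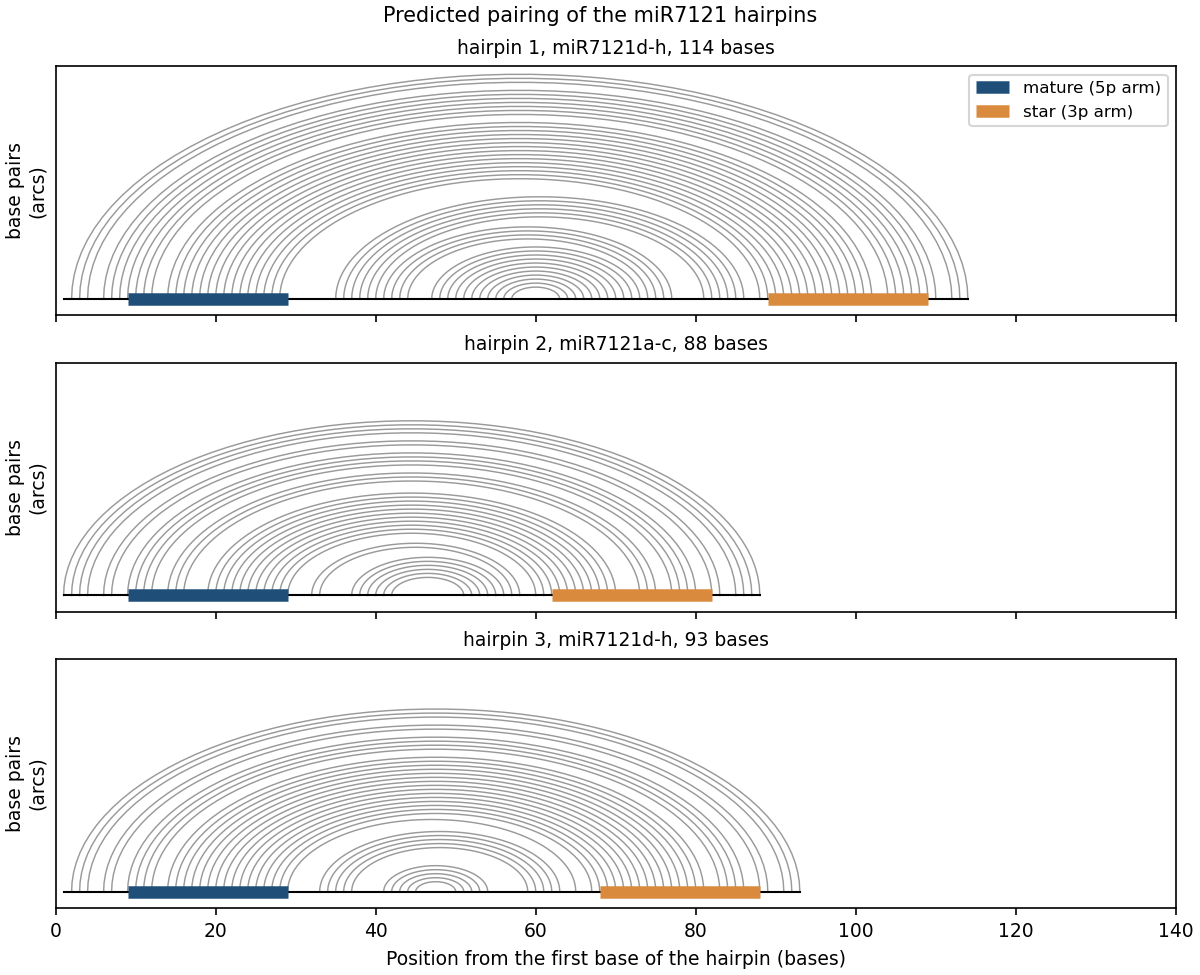
Predicted base pairing of the 3 miR7121 hairpins, with the position from the first base of each hairpin in bases on the x axis and each base pair as an arc. The mature strand (blue) and the star strand (orange) face each other in all 3, and hairpin 1 has the longest stretch between them, with 59 bases.

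The libraries held 561723 to 2307267 mature reads (median 1273939). A count of 0 in a library allows up to 3 counts, or 1.30 to 5.34 CPM (counts scaled to library size in the usual unit). This limit is scaled to the total of mature reads, unlike the levels below, and covers counting error only. Sequences named miR166 took 66.2 to 91.4% of the reads, the lowest share in library I and the highest in library L. The 4 sequences together took 0.0800 to 0.912% of the reads, the lowest share in library L and the highest in library I. All 4 had reads in all 12 libraries, 52459 in all, and all 4 passed the filter on low counts, which kept 238 of the 370 sequences. Levels are given as CPM normalised by the trimmed mean of M values (TMM).

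miR7120-3p was the most abundant of the 4, with 33172 reads over all libraries and 1099 to 7134 in each. miR7121d-h (mdm-miR7121e) had 10553 reads, 238 to 3067 in each library, and miR7121a-c (mdm-miR7121c) had 8165 reads, 276 to 2001 in each. miR7120-5p had 569 reads and 6 to 146 in each. In each of the 12 libraries miR7120-3p was the highest and miR7120-5p the lowest. The 2 miR7121 sequences did not keep an order, since miR7121d-h was the higher in 5 libraries and miR7121a-c in 7.

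In libraries A, B and C of Stage 1, miR7121d-h had 567, 415 and 342 CPM, in D, E and F of Stage 2 it had 1001, 332 and 310.1 CPM, in G, H and I of Stage 3 it had 1569, 293 and 1943 CPM, and in J, K and L of Stage 4 it had 316, 310.0 and 181 CPM. Libraries G and I stood above all others, D was next, and the remaining 9 lay between 181 and 567 CPM, with H among them. Its stage means were 441 ± 115, 548 ± 392, 1269 ± 865 and 269 ± 76.1 CPM in Stages 1 to 4 (SD, n = 3 each), so that the SD was 71.7% of the mean in Stage 2 and 68.2% in Stage 3.

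miR7121a-c had 580.5, 554 and 277 CPM in A, B and C of Stage 1, 485, 353 and 318 CPM in D, E and F of Stage 2, 832, 524 and 1268 CPM in G, H and I of Stage 3, and 379, 254 and 307 CPM in J, K and L of Stage 4. Libraries G and I were again the highest, but library D lay within the range of Stage 1. Its stage means were 471 ± 168, 385 ± 88.4, 875 ± 374 and 313 ± 62.3 CPM in Stages 1 to 4 (SD, n = 3 each).

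miR7120-3p had 2338, 2254 and 1906 CPM in A, B and C of Stage 1, 1823, 1807 and 1617 CPM in D, E and F of Stage 2, 3112, 1363 and 4521 CPM in G, H and I of Stage 3, and 2054, 1809 and 745 CPM in J, K and L of Stage 4. The libraries of Stages 1 and 2 lay close together, whereas Stage 3 held both of the highest libraries and the second lowest. Its stage means were 2166 ± 229, 1749 ± 114, 2998 ± 1582 and 1536 ± 696 CPM in Stages 1 to 4 (SD, n = 3 each).

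miR7120-5p had 13.5, 16.6 and 6.03 CPM in A, B and C of Stage 1, 35.3, 33.5 and 25.7 CPM in D, E and F of Stage 2, 77.5, 29.5 and 92.5 CPM in G, H and I of Stage 3, and 53.6, 27.0 and 18.3 CPM in J, K and L of Stage 4. The 3 libraries of Stage 1 were the lowest of the 12, except when scaled to the total of mature reads, where library L of Stage 4 had 11.7 CPM and the highest of Stage 1 had 13.7 CPM. Its stage means were 12.1 ± 5.44, 31.5 ± 5.09, 66.5 ± 32.9 and 32.97 ± 18.4 CPM in Stages 1 to 4 (SD, n = 3 each).

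**Figure D2:**
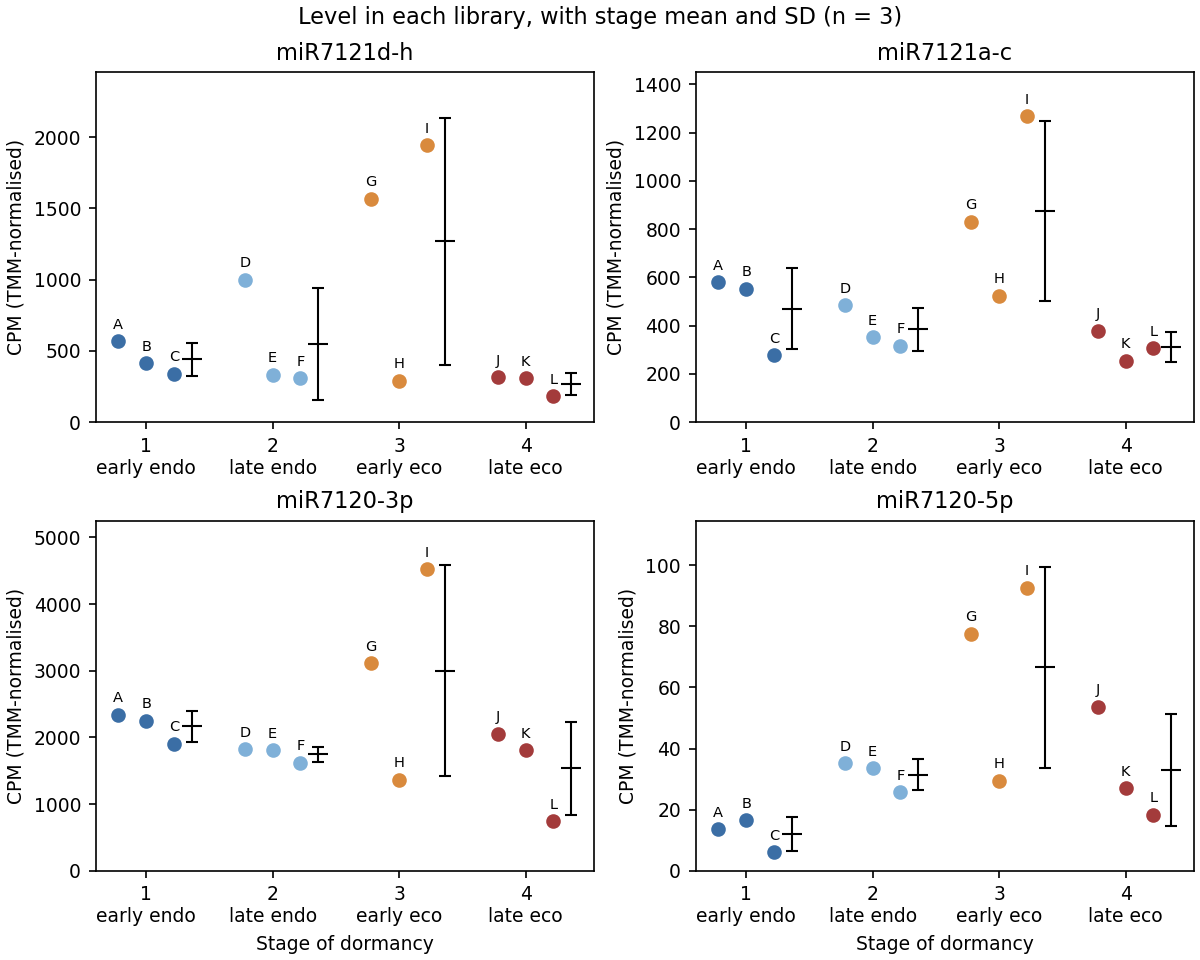
Level of each sequence in each library, in TMM-normalised CPM on a linear y axis from 0, by stage on the x axis, with each point named by its library and the stage mean and SD (n = 3) as the black bar to its right. With this scaling libraries G and I are the 2 highest for all 4 sequences while H lies among the other stages, and the 3 Stage 1 libraries are the lowest for miR7120-5p, and with the total of mature reads as the scale both statements fail for miR7120-5p.

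Stage 3 was therefore not uniform for these sequences. Libraries G and I were both above the other 10 libraries for all 4, a pattern that 24 of the 238 sequences tested, 10.1%, showed. Scaled to the total of mature reads, it held for 3 of 4, all but miR7120-5p, where 12.6% of all sequences showed it, and scaled by the reads not named miR166 it held for miR7121d-h alone, where 2.94% did. It held for all 4 with the reads of the study's sample table as the scale, where 18.1% did, and with the median of ratios, where 8.82% did. With TMM, the mean of G and I was 1756 CPM for miR7121d-h, against 293 CPM in H of the same stage and a median of 324 CPM in the other 10 libraries. For miR7121a-c their mean was 1050.0 CPM, against 524 CPM in H and a median of 366 CPM in the other 10. For miR7120-3p it was 3816 CPM, against 1363 CPM in H and a median of 1816 CPM, and for miR7120-5p it was 85.0 CPM, against 29.5 CPM in H and a median of 26.3 CPM. Relative to the median of the other 10 libraries, the mean of G and I was 5.42 times as high for miR7121d-h, 2.87 times for miR7121a-c, 2.10 times for miR7120-3p and 3.23 times for miR7120-5p. The median of this ratio over all sequences tested was 1.17, and 14 of them had a ratio at least as high as miR7121d-h. The miR166 share was 72.9% in G and 66.2% in I, against 79.6% in H, and H was the shallowest of the 12 libraries, and the part of either in these levels was not tested.

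The study followed the buds from endodormancy to ecodormancy, and the first question is whether any of the 4 changed among the stages. miR7121d-h and miR7121a-c came nearest, and none passed the test. In edgeR's quasi-likelihood F test over all 12 libraries, with Benjamini-Hochberg adjustment over the 238 sequences, the adjusted p was 0.104 for miR7121d-h, 0.151 for miR7121a-c, 0.643 for miR7120-5p and 0.647 for miR7120-3p. Thus 0 of 4 were called, where 3 of all sequences tested, 1.26%, were. With the threshold of 0.05 set on p before adjustment, both miR7121 sequences passed, 2 of 4, where 10.9% of all sequences did. DESeq2 called both miR7121 sequences, 2 of 4, where it called 16 of 369 sequences, 4.34%, with adjusted p of 0.0230 for miR7121d-h and 0.0477 for miR7121a-c. It gave miR7120-5p no adjusted p. The 369 include such sequences, which could not be called, so that the share among those it could call is above 4.34%. For miR7121d-h the call turned on single libraries, since its adjusted p by edgeR was 0.0270 without library H, where 5.28% of all sequences were called, 0.0382 without library D, where 3.69% were, and 0.671 without library I.

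For the step into late ecodormancy, miR7121d-h had a log2 fold change of -2.24 (SE 0.58) in Stage 4 against Stage 3, but the libraries of the 2 stages overlapped because H lay within the range of Stage 4. miR7121a-c had a log2 fold change of -1.48 (SE 0.44), and its 3 Stage 4 libraries, 254 to 379 CPM, lay below its 3 Stage 3 libraries, 524 to 1268 CPM, without overlap, as for 7.98% of all sequences tested, and none of the 4 lay above without overlap, where 4.62% did. miR7120-3p had -0.97 (SE 0.43) and miR7120-5p had -1.02 (SE 0.91), and the stages overlapped for both. By edgeR's quasi-likelihood test the adjusted p was 0.0798, 0.0894, 0.335 and 0.767 for miR7121d-h, miR7121a-c, miR7120-3p and miR7120-5p, so that 0 of 4 were called, where 0.42% of all sequences were. Before adjustment 3 of 4 passed 0.05, both miR7121 sequences and miR7120-3p, where 11.8% of all sequences did. DESeq2 called 2 of 4, where it called 15 of 369 sequences, 4.07%, with adjusted p of 0.0118 for miR7121d-h and 0.0270 for miR7121a-c. It gave miR7120-5p no adjusted p here either. The 369 include such sequences, which could not be called, so that the share among those it could call is above 4.07%. Without library H the adjusted p of miR7121d-h by edgeR was 0.0265, where 10 of 246 sequences were called, and without libraries G and I, which leaves H alone in Stage 3, its log2 fold change was -0.12. The log2 fold change of miR7121a-c was -0.74 without these libraries. Scaled by the reads not named miR166, the log2 fold changes were -1.40 for miR7121d-h and -0.75 for miR7121a-c, while the median of all sequences stood at 0.55.

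The step from endodormancy into ecodormancy showed differences of the opposite sign. In Stage 3 against Stage 2 the log2 fold change was 1.21 (SE 0.56) for miR7121d-h, 1.18 (SE 0.43) for miR7121a-c, 0.78 (SE 0.42) for miR7120-3p and 1.08 (SE 0.91) for miR7120-5p. The 3 Stage 3 libraries of miR7121a-c, 524 to 1268 CPM, lay above its 3 Stage 2 libraries, 318 to 485 CPM, as for 10.1% of all sequences, although they overlapped when scaled by the reads of the study's sample table. The other 3 sequences overlapped, and none lay below without overlap, where 7.14% did. With the total of mature reads as the scale, the Stage 3 libraries of miR7120-5p also lay above those of Stage 2, as for 20.6% of all sequences. The quasi-likelihood test of edgeR gave adjusted p of 0.455, 0.253, 0.565 and 0.844 for miR7121d-h, miR7121a-c, miR7120-3p and miR7120-5p, and called 0 of 4, where 0.84% of all sequences were called. Before adjustment 2 of 4 passed 0.05, both miR7121 sequences, where 10.1% of all sequences did, and DESeq2 called 0 of 4, where it called 1.36% of all. Scaled by the reads not named miR166, the log2 fold changes were 0.54 for miR7121d-h, 0.62 for miR7121a-c and 0.16 for miR7120-3p, while the median of all sequences stood at -0.29. Without library D that of miR7121d-h was 2.16. Without libraries G and I the log2 fold change was -0.89 for miR7121d-h, -0.35 for miR7120-3p and -0.08 for miR7120-5p, with the sign turned.

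Against Stage 1, the log2 fold change of miR7120-5p was 1.37 (SE 0.93) in Stage 2, 2.45 (SE 0.96) in Stage 3 and 1.44 (SE 0.93) in Stage 4, each against the same 3 Stage 1 libraries. Its later libraries lay above those of Stage 1 without overlap for Stage 2, as for 3.36% of all sequences, for Stage 3, as for 9.24%, and likewise in Stage 4, as for 13.4%. Scaled to the total of mature reads, the libraries of Stage 4 and Stage 1 overlapped. In the quasi-likelihood test of edgeR its adjusted p was 0.963, 0.414 and 0.749 at Stages 2, 3 and 4, and DESeq2 gave 0.0421 at Stage 3, where it called 1.63% of all sequences. The other arm, miR7120-3p, had log2 fold changes of -0.31 (SE 0.42), 0.47 (SE 0.42) and -0.50 (SE 0.42) at Stages 2, 3 and 4. Its Stage 3 libraries overlapped with those of Stage 1, but with the total of mature reads as the scale they lay above, as for 30.3% of all sequences. Its Stage 2 libraries, 1617 to 1823 CPM, lay below its Stage 1 libraries, 1906 to 2338 CPM, as for 12.6% of all sequences, but they overlapped under each of the 4 other scalings, and scaled by the reads not named miR166 the log2 fold changes at Stage 2 were 0.0012 for miR7120-3p and 0.0427 for miR7121a-c. miR7121d-h had log2 fold changes of 0.31 (SE 0.55), 1.52 (SE 0.57) and -0.72 (SE 0.56), and its Stage 4 libraries, 181 to 316 CPM, lay below its Stage 1 libraries, 342 to 567 CPM, as for 13.9% of all sequences, but they overlapped under 3 of the 4 other scalings, the exception being the median of ratios, where 10.5% of all sequences lay below. miR7121a-c had -0.29 (SE 0.43), 0.89 (SE 0.43) and -0.59 (SE 0.43), and its libraries overlapped with those of Stage 1 at each stage. Those of Stage 3 lay above under 3 of the 4 other scalings, as for 7.98 to 30.3% of all sequences. This share was lowest when scaled by the reads not named miR166 and highest with the total of mature reads. Scaled to the total of mature reads, which raised the median of all sequences to 0.65 in Stage 4 against Stage 1, the log2 fold changes of miR7120-3p and miR7121a-c were 0.27 and 0.04, with the sign turned, and that of miR7121d-h was -0.01. The edgeR test called 0 of 4 in the Stage 2 comparison, where 0% of all sequences were called, 0 of 4 in that of Stage 3, where 0.42% were, and 0 of 4 in that of Stage 4, where 1.26% were. Before adjustment, 0 of 4 passed 0.05 in the Stage 2 comparison, where 5.04% of all sequences did, 3 in that of Stage 3, all but miR7120-3p, where 9.66% did, and 0 in that of Stage 4, where 10.5% did. DESeq2 called miR7120-5p at Stage 3 and no other, with 0 of 4 at Stage 2, where it called 0 of 369 sequences, and 0 of 4 at Stage 4, where it called 1.90%. The sign of miR7120-3p and miR7121d-h at Stage 3 rested on libraries G and I, without which the log2 fold changes were -0.67 and -0.59, and that of miR7121d-h at Stage 2 rested on library D, without which it was -0.70.

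Between the phases, the mean of Stages 3 and 4 against the mean of Stages 1 and 2, the log2 fold change was 1.26 (SE 0.65) for miR7120-5p, 0.30 (SE 0.30) for miR7121a-c, 0.25 (SE 0.39) for miR7121d-h and 0.14 (SE 0.30) for miR7120-3p. The 6 ecodormancy libraries overlapped with the 6 endodormancy libraries for all 4. Of all sequences tested, 1.26% lay higher in ecodormancy without overlap and 0% lay lower. The edgeR test gave adjusted p of 0.487, 0.876, 0.930 and 0.949 for miR7120-5p, miR7121a-c, miR7121d-h and miR7120-3p and called 0 of 4, where 1.26% of all sequences were called. Before adjustment 0 of 4 passed 0.05, where 10.1% of all sequences did, and DESeq2 called 0 of 4, where it called 2.17% of all. Scaled to the total of mature reads, which placed the median of all sequences at 0.66, the log2 fold changes were 0.85 for miR7121a-c, 0.88 for miR7121d-h and 0.73 for miR7120-3p. Without libraries G and I they were -0.06, -0.80 and -0.42 for miR7121a-c, miR7121d-h and miR7120-3p, with the sign turned.

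**Figure D3:**
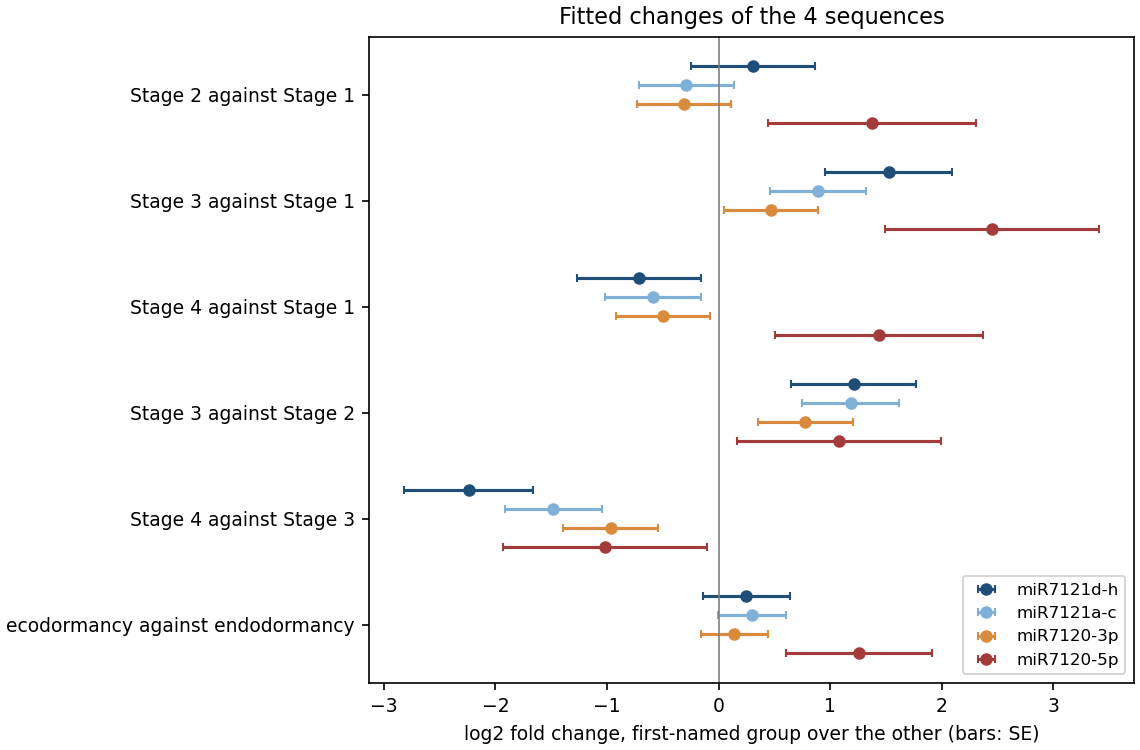
Fitted log2 fold change of the 4 sequences in each comparison, with the first-named group over the other on the x axis, the SE as bars and a line at 0. The miR7121 sequences are at -2.24 and -1.48 in Stage 4 against Stage 3, and with TMM scaling miR7120-5p is at 1.44 in Stage 4 against Stage 1, where the other 3 lie between -0.72 and -0.50.

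The arms of miR7120 were then compared within each library, since a share of 2 counts from the same library does not depend on how libraries are scaled. miR7120-5p made up a smaller part of the miR7120 reads in early endodormancy than later. Its share was 0.575, 0.731 and 0.315% in A, B and C of Stage 1, 1.90, 1.82 and 1.56% in D, E and F of Stage 2, 2.43, 2.12 and 2.01% in G, H and I of Stage 3, and 2.55, 1.47 and 2.40% in J, K and L of Stage 4. Each of the later libraries lay above the 3 of Stage 1, and libraries G, H and I, which differed in level, lay close together. The stage means were 0.541 ± 0.210, 1.76 ± 0.175, 2.19 ± 0.219 and 2.14 ± 0.584% in Stages 1 to 4 (SD, n = 3 each).

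Counting error was largest for this measure, because the 5p arm had few reads. Library C of Stage 1 had 6 reads of miR7120-5p beside 1897 of miR7120-3p, for which the exact 95% binomial interval of the share was 0.116 to 0.685%. Library B, the highest of Stage 1, had an interval of 0.447 to 1.13%, and library K, the lowest of the later libraries, had 1.02 to 2.05%, so that these intervals overlapped. The number of miR7120-3p reads for each miR7120-5p read was 38.3 to 67.1 in the later libraries, against 136 to 316 in Stage 1.

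The share differed among the stages by an exact permutation test over all 369600 assignments of the 12 libraries to 4 stages of 3 (p = 0.00649, adjusted p = 0.0195 over the 3 ratios tested here). With ranks in place of percentages the adjusted p of this permutation test was 0.0701, which ends the call. It was 0.0214 for the log2 odds of the arms, and 0.00156 to 0.0343 when each library was left out in turn. Stage 2 exceeded Stage 1 by 1.22 percentage points, Stage 3 by 1.64 and Stage 4 by 1.60, and each of these had a two-sided exact permutation p of 0.1, the smallest that 3 against 3 libraries can give. Stage 3 and Stage 2 differed by 0.43 percentage points with the same p. Stage 4 and Stage 3 differed by -0.05 percentage points (exact permutation p = 0.9). Between the phases the share averaged 2.16% in ecodormancy and 1.15% in endodormancy (exact permutation p = 0.0130 over 924 splits, 6 libraries each), but late endodormancy was on the side of ecodormancy. The later libraries held 561723 to 2307267 mature reads, against 1193922 to 2088298 in Stage 1, and the part of depth in the share was not tested. The arm shares were chosen for testing after counts of these libraries had been seen.

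**Figure D4:**
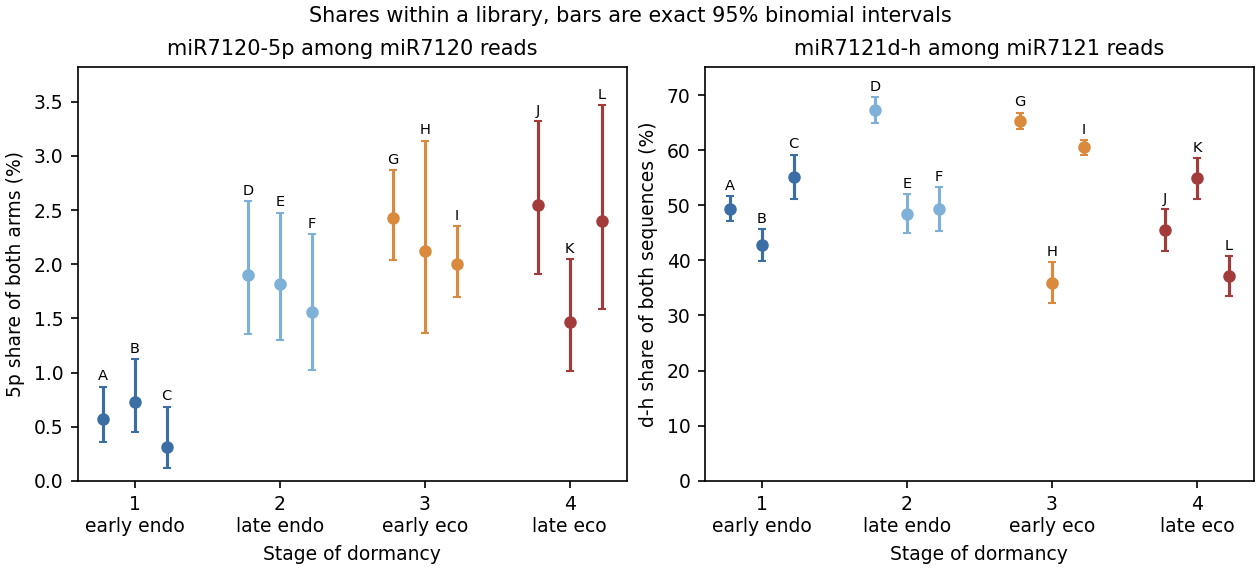
Share of miR7120-5p among the reads of both miR7120 arms (left) and of miR7121d-h among the reads of both miR7121 sequences (right), in percent on y axes from 0, by stage on the x axis, with each point named by its library and its exact 95% binomial interval as the bar. The 5p share is 1.47 to 2.55% in Stages 2 to 4 and 0.315 to 0.731% in Stage 1, whereas the miR7121d-h share is highest in libraries D, G and I and follows no stage.

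The miR7121 sequences were compared in the same way. miR7121d-h had 0.98, 0.75 and 1.23 reads for each read of miR7121a-c in A, B and C of Stage 1, 2.06, 0.94 and 0.98 in D, E and F of Stage 2, 1.89, 0.56 and 1.53 in G, H and I of Stage 3, and 0.83, 1.22 and 0.59 in J, K and L of Stage 4. Library D was the highest, followed by G and I, and H and L were the lowest. As a share of the miR7121 reads, miR7121d-h was 67.3% in D, 65.4% in G and 60.5% in I, against 35.8% in H and 37.1% in L, and the exact 95% intervals of the first 3, whose lowest bound was 59.2%, lay above those of H and L, whose highest bound was 40.7%. These intervals cover counting error only. Among the stages, the log2 ratio did not pass the exact permutation test (p = 0.703, adjusted p = 0.703). Its stage means were -0.05 ± 0.36, 0.31 ± 0.64, 0.23 ± 0.94 and -0.25 ± 0.52 in Stages 1 to 4 (SD, n = 3 each).

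The summed miR7121 reads were set against miR7120-3p. There were 0.491, 0.430 and 0.325 miR7121 reads for each miR7120-3p read in A, B and C of Stage 1, 0.815, 0.379 and 0.388 in D, E and F of Stage 2, 0.772, 0.600 and 0.710 in G, H and I of Stage 3, and 0.338, 0.312 and 0.655 in J, K and L of Stage 4. The 3 libraries of Stage 3 lay above those of Stage 1 and, of all libraries, only D and L reached their range. The log2 ratio did not pass the exact permutation test among the stages (p = 0.256, adjusted p = 0.384).

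The sequences whose pattern over the 12 libraries was nearest were found by the root mean square difference of mean-centred log2 CPM, as a description. For miR7121d-h they were mtr-miR4414a-5p at 0.54, mdm-miR482b at 0.56 and mdm-miR171b at 0.57, where the median over all sequences tested was 1.73. For miR7121a-c they were the unnamed sequence t05229383_x4081 at 0.38, peu-miR2910 at 0.44 and mdm-miR159d at 0.46, where the median was 1.70. For miR7120-3p they were mdm-miR167g at 0.22, mdm-miR171b at 0.31 and mdm-miR482c at 0.33, where the median was 1.53. The miR7121 sequences were at 0.58 from each other, so that miR7121a-c was the fourth nearest to miR7121d-h and miR7121d-h the fourteenth nearest to miR7121a-c. The arms of miR7120 were at 0.91 from each other, and 64 sequences were nearer to miR7120-3p than its own 5p arm was. In the other direction, miR7120-3p had rank 15 among the sequences nearest to miR7120-5p. These distances include counting error, which was largest for miR7120-5p.

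The apple families numbered miR7122 to miR7128 were read beside these as a comparison list. Of its 6 sequences in the table of known miRNAs, 5 passed the filter. In each of the 7 comparisons 0 were called by edgeR's quasi-likelihood test, where 0 to 1.26% of all sequences were. Before adjustment 1 of the 5, mdm-miR7125, passed 0.05 in Stage 2 against Stage 1, where 5.04% of all sequences did. In Stage 4 against Stage 3 it was again 1, mdm-miR7126-3p, where 11.8% of all sequences passed. mdm-miR7126-3p averaged 190 ± 202 CPM in Stage 4 and 71.5 ± 18.6 CPM in Stage 3 (SD, n = 3 each), a log2 fold change of 1.41 (adjusted p = 0.351 by edgeR). The direction of its mean was opposite to that of the miR7121 sequences in this step. Its SD in Stage 4 was larger than its mean, so that the 3 libraries of that stage differed widely. mdm-miR7125 had only 75 reads in all and was at 0 in 6 libraries. It had none in the 3 libraries of Stage 2, against 13.1 ± 5.91 CPM in Stage 1 (SD, n = 3). mdm-miR7122a, of a family known in rosaceous plants to start the production of secondary small RNAs from PPR genes, averaged 10.2, 30.9, 18.4 and 32.0 CPM in Stages 1 to 4 and did not pass in any comparison. The median log2 fold change of the list was 0.14 in Stage 4 against Stage 3 and 0.40 in Stage 3 against Stage 2, where all sequences tested had medians of 0.01 and 0.14.

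Transcript sites to which the study's target prediction paired miR7121 were read by letters alone, and no measurement of these transcripts was made here. There were 9 sites in 8 genes, of which 6 were listed for both miR7121 sequences, 2 for miR7121a-c alone and 1 for miR7121d-h alone. The sites shown are the full complement and the sites of genes with a named Arabidopsis relative, with the bases that face the seed in capitals.
MD02G1023700: acagggcgatcacCAAGAGGa
MD10G1176800: ccagggggattacCAAAAGGa
MD09G1223600: aaggtgccatcacCAAGAGGa
MD02G1307800 and MD07G1017800: caaggtggattacCAGGAGGa

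The site of MD02G1023700 formed Watson-Crick pairs, the kind counted here, with miR7121a-c at all 21 bases and with miR7121d-h at 20, the exception being the base that separates them. No other site had Watson-Crick pairs at all 21 bases. MD02G1024300 held 2 sites, which paired with miR7121a-c at 18 and 17 bases, with 3 G:U pairs each, so that the first had no mismatch once G:U pairs are counted, and with miR7121d-h at 17 and 16. In the best match over all stretches of the 3 hairpins, these sites were identical at 19 and 18 of 21 bases. The full complement in MD02G1023700 reached 16, and the lowest site, that of MD09G1223600, reached 12. Any site that pairs with the mature strand resembles the star strand, and what such a match means was not tested. The site of MD10G1176800, a relative of HEN1, which in Arabidopsis methylates small RNAs and so protects them, paired at 17 bases with either sequence. The site of MD09G1223600, a relative of the plasma membrane proton pump AHA9, paired at 17 bases with miR7121a-c and 16 with miR7121d-h, although it was listed for miR7121d-h alone. MD02G1307800 and MD07G1017800, relatives of RLF, which in Arabidopsis is needed for lateral roots, shared 1 site that paired at 15 bases with either. Full pairing of the 7 seed bases was found at 3 of the 9 sites, and 4 of the 9 sites were in genes of chromosome 2, on which the hairpins lie. In RefSeq's annotation of another apple assembly, GDT2T_hap1, MIR7121B and MIR7121G are neighbours with no gene between them, and MIR7121A is separated from MIR7121B by 13 genes.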

How the data were processed

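The authors purified ARGONAUTE-bound small RNAs from buds, mapped the reads to GDDH13 v1.1 and counted them with Mir-Island, and per the labels CASAVA and Bowtie 0.12.9 were used. Trimming, mismatches allowed and the treatment of reads with several loci are not given in the sources used here. The deposited values used were raw counts per mature sequence and library, in a table of 254 known sequences and a table of 199 de novo loci, beside 4 empty lines. Of 154 de novo sequences, 38 were also known, with identical counts, which gave 370. Columns carry library numbers, and the study's supplementary copy and sample table gave their letters and stages. A further 48 columns with a value per library were not used.

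Members and lists were chosen with earlier results of these data known. Sequences were kept by filterByExpr (minimum count 10, minimum total 15) and tested with edgeR 4.0.16 in R 4.3.3 (quasi-likelihood F test, TMM, 1 mean per stage, threshold 0.05), with DESeq2 1.42.0 as an alternative. SE is the log2 fold change divided by the square root of F. Only edgeR's quasi-likelihood test of any change among the stages was checked on simulated data, with changes placed in Stage 4. Libraries of a stage were separate pools of buds and differed by more than sampling noise (chi-square per degree of freedom 20.5 to 469). Pseudocounts of 0.5 were added to counts in log2 ratios. Hairpins were folded with ViennaRNA 2.7.2 and aligned with Biopython 1.88. Permutation tests used Python 3.11.15, and intervals scipy 1.17.1. Named sequences were the 4 members, their hairpins, the 3 nearest non-members, the miR7122 to miR7128 list and the predicted sites. Alternatives were other scalings, filters and tests and each library left out. Overlap of stages under other scalings was looked at after seeing the data.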

Additional observations from a re-analysis of the deposited data

Results flagged for a closer look

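In the endodormancy libraries, miR7121d-h had 1001 CPM in library D of Stage 2, while the other 5 libraries of this phase lay between 310.1 and 567 CPM. The gap from D to the next library was 0.628 of the whole range of the 6, just above Dixon's 95% critical value for 6 samples. This was 1 of 12 groups of 6 libraries looked at, and chance flags about 1 in 20 groups. Library D was not apart for the other sequences, with 485 CPM of miR7121a-c, 1823 CPM of miR7120-3p and 35.3 CPM of miR7120-5p. Groups of 3 libraries, as the stages are, were not examined in this way.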

How the results depend on the processing

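The values come from the library totals in the tables, TMM scaling and the 12 libraries in 1 model, and 25 alternatives were run on the edgeR tests, 12 of them with a library left out. In 571 of 589 cases the log2 fold changes of the 4 sequences kept their sign. Members called among the 4 stages numbered 0, against 1 without a filter (11 of 370 sequences called, miR7121d-h, adjusted p = 0.00568), 1 with at least 10 reads in every library (10 of 111, miR7121d-h, adjusted p = 0.0385), 2 with DESeq2 (16 of 369, miR7121d-h, adjusted p = 0.0230, and miR7121a-c, adjusted p = 0.0477) and 0 to 1 with a library left out (adjusted p of miR7121d-h 0.0270 without H to 0.671 without I). In Stage 4 against Stage 3 the number called was 0, against 1 with the read totals of the study's sample table as library sizes (2 of 238 sequences called), with no filter (3 of 370), with at least 10 reads in every library (5 of 111) or with the likelihood ratio test of edgeR (3 of 238), 2 with DESeq2 (15 of 369), and 0 to 1 with a library left out, the 1 being miR7121d-h without H (10 of 246). In Stage 3 against Stage 1 it was 0, against 1 with DESeq2 (6 of 369), miR7120-5p. Among the 4 stages and in Stage 4 against Stage 3, the 369 of DESeq2 include sequences without an adjusted p. These could not be called, and miR7120-5p was among them. The filter of at least 10 reads in every library removed miR7120-5p, so that 3 of the 4 were tested there. The sign turned as follows. Scaled without miR166, Stage 2 against Stage 1 gave log2 fold changes of 0.0012 for miR7120-3p and 0.0427 for miR7121a-c. Scaled to the total of mature reads, Stage 4 against Stage 1 gave 0.27 for miR7120-3p and 0.0394 for miR7121a-c. Without libraries D and L, miR7121d-h gave -0.70 in Stage 2 against Stage 1, and with a library left out -0.70 (without D) to 0.68. Without libraries G and I, Stage 3 against Stage 1 gave -0.67 for miR7120-3p and -0.59 for miR7121d-h, Stage 3 against Stage 2 gave -0.35 for miR7120-3p, -0.0772 for miR7120-5p and -0.89 for miR7121d-h, Stage 4 against Stage 3 gave 0.17 for miR7120-3p and 0.16 for miR7120-5p, and ecodormancy against endodormancy gave -0.42 for miR7120-3p, -0.0631 for miR7121a-c and -0.80 for miR7121d-h. That alternative was chosen after seeing the data, and it leaves Stage 3 with H alone, which is assumed to vary like the other libraries. miR7120-3p gave -0.0410 to 0.38 in ecodormancy against endodormancy with a library left out. The cause of these turns was not tested. The adjusted p of the 5p share of miR7120 was 0.0701 with ranks, and that of the other ratios stayed above 0.05. Over all alternatives the number of sequences called among the stages ran from 1 to 16. The other scalings placed the median log2 fold change of all sequences between -0.29 and 0.75 over the comparisons, against -0.03 to 0.15 with TMM. The planned scaling by totals implied by the authors' RPM values and the 2 planned star shares were not run, since those columns were not used. Adjusted over the 5 ratios planned in place of 3, the p of the 5p share is at most 0.0325.

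No paired analysis was possible because the count columns carry no replicate numbers, so no block by replicate was fitted. Precision was limited most for miR7120-5p, with 6 reads in its lowest library.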
